A study of Mus musculus with 8 samples.

Results

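A set of 9 T cell genes was followed in RNA pooled from whole mouse hearts: Tcrb-V8.2, Cd3e, Cd3g, Cd4, Cd8a, Lat, Rasgrp1, Cd6 and Thy1. They were chosen by their gene symbol in the platform annotation, from their ratios between female and male pools in these data, so the ratios below describe the genes and were not tested. Each of the 9 genes had 1 probe, and they were 9 of 9042 gene rows (9607 probes). All 9 had a value on all 8 arrays and passed the filter on missing values.

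Hearts of C57BL/6 mice, an inbred laboratory strain, were taken from females and males at 2 and at 8 months of age. Total RNA came from pools of 6 hearts, 1 pool of females and 1 of males per age, so that 4 pools held 24 animals; the labels name no allele and no treatment in any group. At each age, 4 arrays of the 2-colour cDNA type set the female pool against the male pool of that age, with the female pool in the dye Cy3 on replicates 1 and 3 and in Cy5 on replicates 2 and 4. The 4 arrays of an age are therefore repeat measurements of 2 RNA pools, and their SD is technical. No test across animals exists at 1 age, because each age has 1 pool per sex.

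The T cell receptor recognises peptide presented by major histocompatibility complex molecules. Its alpha and beta chains bind the antigen but carry no signalling domain of their own, so they depend on the CD3 chains gamma, delta, epsilon and zeta, whose cytoplasmic tyrosine motifs are phosphorylated by the kinase Lck. The co-receptors CD4 and CD8 bring Lck to the receptor, the kinase ZAP-70 then phosphorylates the adaptor LAT, and LAT assembles the enzymes that produce diacylglycerol and calcium signals. Diacylglycerol recruits RASGRP1, which activates Ras. These genes are typical of T cells and thymocytes and not of heart muscle, although Thy1 is also made by neurons and fibroblasts and Cd4 by some macrophages.

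Upstream sequences are shown for Cd3e, Cd3g and Lat, signalling genes of the receptor that had high ratios together, and for Cd3d, which lies between the CD3 genes shown and had a smaller ratio. They are the 250 bases before the gene's start in RefSeq, build GRCm38.p6, written 5′ to 3′ along the gene. Capitals mark matches on either strand to motifs of factor families known from T cells. The motif letters were AGGAAG for Ets factors and CAGNTG for E proteins. For Gata factors they were AGATAA, and for TCF/LEF factors CTTTGA. Runx factors were searched as ACCACA and the TATA box as TATAAA. No matches overlapped in the windows shown.
Cd3e, chr9:45009612-45009861, minus strand: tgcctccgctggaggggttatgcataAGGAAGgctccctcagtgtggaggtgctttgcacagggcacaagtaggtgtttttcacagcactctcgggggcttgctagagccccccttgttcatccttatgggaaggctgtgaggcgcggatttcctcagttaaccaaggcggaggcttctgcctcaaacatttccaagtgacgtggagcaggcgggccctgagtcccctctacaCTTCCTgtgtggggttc
Cd3g, chr9:44980432-44980681, minus strand: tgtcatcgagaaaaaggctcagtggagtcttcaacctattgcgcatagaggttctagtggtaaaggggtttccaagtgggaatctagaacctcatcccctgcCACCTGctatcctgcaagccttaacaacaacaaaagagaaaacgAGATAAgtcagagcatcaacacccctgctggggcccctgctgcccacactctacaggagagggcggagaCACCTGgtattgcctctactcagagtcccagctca
Cd3d, chr9:44981536-44981785, plus strand: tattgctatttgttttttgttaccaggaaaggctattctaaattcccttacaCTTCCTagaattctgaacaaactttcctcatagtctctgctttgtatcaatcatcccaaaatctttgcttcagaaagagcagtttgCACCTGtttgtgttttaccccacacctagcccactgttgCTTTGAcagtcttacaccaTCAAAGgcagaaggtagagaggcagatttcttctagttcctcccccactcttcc
Lat, chr7:126369569-126369818, minus strand: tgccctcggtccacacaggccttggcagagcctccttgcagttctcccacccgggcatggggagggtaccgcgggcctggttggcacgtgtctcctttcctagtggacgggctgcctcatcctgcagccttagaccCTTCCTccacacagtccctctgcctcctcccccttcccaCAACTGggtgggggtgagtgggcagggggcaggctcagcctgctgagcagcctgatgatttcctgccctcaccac

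The promoter table held 5 of the 9 genes (Cd3e, Cd3g, Cd8a, Lat and Rasgrp1). Cd3e had 2 Ets matches, 224 and 17 bases before the start. Cd3g had 2 E protein matches, 148 and 35 bases before the start, and 1 Gata match. Lat had 1 Ets and 1 E protein match, Rasgrp1 had 1 E protein match, and Cd8a had none of the 6 motifs. Over the 5 windows, Ets letters were in 2 and E protein letters in 3, against 29.5% and 44.8% of the 32851 windows of the same length in the table. Gata letters were in 1 of the 5, against 9.99% of windows. Runx, TCF/LEF and TATA letters were in 0 of the 5, against 14.0%, 13.8% and 12.4%. A match describes these letters and is not a measured binding site. On chromosome 9, Cd3g, Cd3d and Cd3e are neighbours with 0 other protein-coding genes between them in that annotation, and Cd3g and Cd3d run in opposite directions from starts 1355 bases apart.

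The deposited values were ratios without intensities, so levels of the genes, and the presence of heart muscle markers as such, could not be read. The sex of the pools followed the labels: Xist, the RNA of the inactive X chromosome, was higher in the female pool on 8 of 8 arrays, and the Y-linked genes Kdm5d and Eif2s3y were lower on 8 of 8. On replicates 1 and 2 at 8 months the ratios drifted along the order of features on the array (SD of a running median 0.50 and 0.82, against 0.029 to 0.069 on the other arrays, log2). The 8-month values of the 9 genes are therefore given for each array, and also from replicates 3 and 4 alone.

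At 2 months, 8 of the 9 genes were 3.13-fold to 16.9-fold higher in the female pool, and Thy1 was not. All values below are log2 ratios of the female over the male pool. For each age the means of both dye orientations were averaged, and the SD is over the 4 arrays.

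Tcrb-V8.2, a variable segment of the receptor beta chain, had the highest value of the 9. It was at 4.74, 5.25, 3.93 and 2.40 on replicates 1 to 4, or 4.08 ± 1.25 (16.9-fold). Its lowest array was still above every 8-month array of the gene, and it had the widest spread of the 9 genes at 2 months.

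The CD3 chains were lower than the beta chain segment and close to each other in ratio. Cd3g, the gamma chain, was at 2.72, 2.94, 1.85 and 1.89, or 2.35 ± 0.56 (5.10-fold). Cd3e, the epsilon chain, was at 2.32, 2.24, 1.57 and 1.55, or 1.92 ± 0.42 (3.79-fold). Both genes were higher on replicates 1 and 2 than on replicates 3 and 4, with no overlap.

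Of the co-receptors, Cd8a, the alpha chain of CD8, was at 4.56, 4.53, 2.89 and 2.98, or 3.74 ± 0.93 (13.3-fold). Cd4 was at 2.62, 2.88, 1.32 and 2.51, or 2.33 ± 0.69 (5.04-fold). The lowest Cd8a array (2.89) lay just above the highest Cd4 array (2.88). Cd4 was lower where the female pool carried Cy3 (1.97) than where it carried Cy5 (2.69). These are ratios between pools, and they give no ratio of CD8 to CD4 transcripts within a pool.

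Downstream of the receptor, Lat was the steadiest gene, at 3.23, 3.46, 3.08 and 3.12, or 3.22 ± 0.17 (9.34-fold). Rasgrp1 was at 3.15, 2.81, 1.92 and 1.97, or 2.46 ± 0.61 (5.50-fold). Every Lat array was above the 2-month Rasgrp1 array of the same replicate number.

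Among the surface proteins, Cd6, a scavenger receptor family member that modulates T cell activation, was at 1.60, 1.88, 1.64 and 1.47, or 1.65 ± 0.17 (3.13-fold). It was the lowest of the 8 genes with high ratios. Thy1, the glycoprotein that marks mouse T cells and thymocytes, was at -0.19, 0.26, -0.99 and -0.03, or -0.24 ± 0.54, and was above 0 on 1 of 4 arrays. Its mean was 0.12 where the female pool carried Cy5 and -0.59 where it carried Cy3, with replicate 3 alone at -0.99. At 8 months the order was reversed, at -0.43 with Cy5 and 0.38 with Cy3, so no steady dye effect was seen.

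The median of the 9 genes at 2 months was 2.35, against -0.016 for all 7812 rows tested. A row was counted by size at an age where the pools differed by 1.5-fold or more and no array of that age had the opposite sign. By that rule 8 of the 9 genes were higher in females, as were 2.41% of all rows (4.17% in either direction). The genes were chosen on this contrast, so nothing is read from that comparison. Ranked from the highest ratio among the 5851 rows with a symbol, Tcrb-V8.2 was 2nd, Cd8a 3rd, Lat 5th, Rasgrp1 10th, Cd3g 12th, Cd4 13th, Cd3e 17th, Cd6 31st and Thy1 4943rd. In bulk RNA of this kind, fewer cells of a type and less RNA per cell cannot be told apart.

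**Figure D1:**
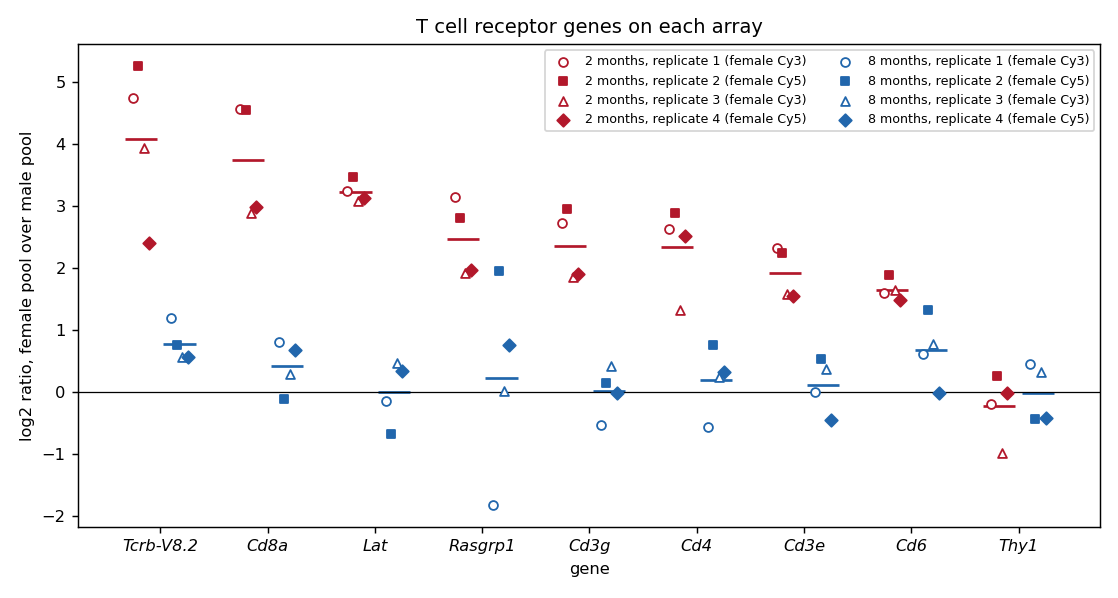
Log2 ratio of the female over the male pool (y axis) for the 9 genes (x axis) on each of the 8 arrays, red for 2 months and blue for 8 months, with open symbols where the female pool carried Cy3, filled symbols where it carried Cy5 and bars for the dye-balanced mean of an age. At 2 months 8 genes lie between 1.32 and 5.25 on every array, and Thy1 between -0.99 and 0.26. The 8-month arrays scatter from -1.82 to 1.95, both in Rasgrp1.

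The 4 arrays at 2 months fell into a higher and a lower pair for most of these genes, and each pair held both dye orientations. In 7 of the 9 genes both of replicates 1 and 2 were above both of replicates 3 and 4, against 10.7% of all rows. The exceptions were Cd6 and Thy1. Of the 176 other rows that were higher by size with a value on all 4 arrays, 65 had the same pattern, as did 29 of the 65 rows that were at least 2-fold higher. Over the 8 genes counted by size, the mean of replicates 3 and 4 was a median of 67.2% of the mean of replicates 1 and 2 on the log2 scale. It was 63.3% for Tcrb-V8.2, 64.5% for Cd8a, 65.3% for Rasgrp1, 66.0% for Cd3g, 68.4% for Cd3e and 69.6% for Cd4. Lat and Cd6 stood apart at 92.8% and 89.6%. Among the 65 other rows at least 2-fold higher the median was 84.1%. The direction of the 8 genes was the same in both pairs.

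At 8 months the mean ratios were near 0 for most of the genes, while single arrays scattered more widely. The median of the 9 was 0.19, against -0.032 for all rows, and 0.38 from replicates 3 and 4 alone. One gene, Tcrb-V8.2, was higher by size, against 1.68% of all rows (2.98% in either direction). The genes were chosen with these values known as well.

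For the receptor chains at 8 months, Tcrb-V8.2 was at 1.18, 0.76, 0.55 and 0.56 on replicates 1 to 4, or 0.76 ± 0.30 (1.70-fold). It was above 0 on all 4 arrays, and from replicates 3 and 4 alone it was at 0.56, under the 1.5-fold limit of 0.58. Cd3g was at -0.53, 0.15, 0.42 and -0.02, or 0.0045 ± 0.40. Cd3e was at -0.0015, 0.53, 0.36 and -0.45, or 0.11 ± 0.44. Both CD3 chains had arrays on either side of 0, and from replicates 3 and 4 alone Cd3g was at 0.20 and Cd3e at -0.045.

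Cd8a was at 0.80, -0.12, 0.29 and 0.68 at 8 months, or 0.41 ± 0.41, and was above 0 on 3 of 4 arrays. With the trend along the features removed Cd8a was at 0.21, 0.93, 0.33 and 0.67, above 0 on every array. Cd4 was at -0.56, 0.75, 0.24 and 0.32, or 0.19 ± 0.55, also above 0 on 3 of 4. From replicates 3 and 4 alone the co-receptors were at 0.48 and 0.28. Their arrays overlapped, unlike at 2 months.

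Lat, so even at 2 months, was at -0.15, -0.69, 0.47 and 0.33 at 8 months, or -0.011 ± 0.52, and its mean was 0.40 from replicates 3 and 4 alone. Rasgrp1 was at -1.82, 1.95, 0.0072 and 0.75, or 0.22 ± 1.58, the widest spread of the 9 genes, and at 0.38 from replicates 3 and 4 alone. On replicates 1 and 2 its opposite signs came with a Cy5 over Cy3 ratio raised on both arrays: the running median around its feature was 1.08 and 0.92 there. With that trend removed Rasgrp1 was at -0.75, 1.04, -0.033 and 0.80, with a mean of 0.26. Cd6 was at 0.61, 1.32, 0.77 and -0.016, or 0.67 ± 0.55, above 0 on 3 of 4 arrays and with no call by size, and its mean was 0.38 from replicates 3 and 4 alone. With the trend removed Cd6 was at 0.96, 0.32, 0.75 and 0.018. Thy1 was at 0.44, -0.44, 0.32 and -0.42, or -0.023 ± 0.47, positive on both arrays with the female pool in Cy3 and negative on both with it in Cy5. The running median around the Thy1 feature was -0.53 and -0.99 on replicates 1 and 2. With the trend removed Thy1 was at -0.090, 0.56, 0.33 and -0.43, and the signs no longer followed the dye. Replicates 3 and 4 alone gave -0.047 for Thy1. Means with the trend removed were 0.89 for Tcrb-V8.2, 0.53 for Cd8a, 0.51 for Cd6 and 0.25 for Cd4. They were 0.10 for Lat, 0.092 for Thy1, -0.016 for Cd3e and -0.080 for Cd3g.

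Set beside each other, the ratios at 2 months exceeded those at 8 months by 3.33 for Cd8a, 3.32 for Tcrb-V8.2, 3.23 for Lat, 2.35 for Cd3g, 2.24 for Rasgrp1, 2.15 for Cd4, 1.81 for Cd3e and 0.98 for Cd6 (log2). For Thy1 the difference was -0.21. In 7 of the 9 genes the 4 arrays of 2 months all lay above the 4 arrays of 8 months, against 2.89% of all rows (5.93% without overlap in either direction). The smallest gap among the 7 was 0.15, for Cd6, and the widest was 2.61, for Lat. The exceptions were Thy1 and Rasgrp1. Rasgrp1 overlapped by 0.034 between replicate 3 at 2 months and replicate 2 at 8 months, the array with the strongest trend. Without replicates 1 and 2 at 8 months, or with the trend removed, 8 genes did not overlap. No share of all rows is given for these settings, and with fewer arrays any row overlaps less readily. The ages have 1 pair of pools each, so their difference was not tested.

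**Figure D2:**
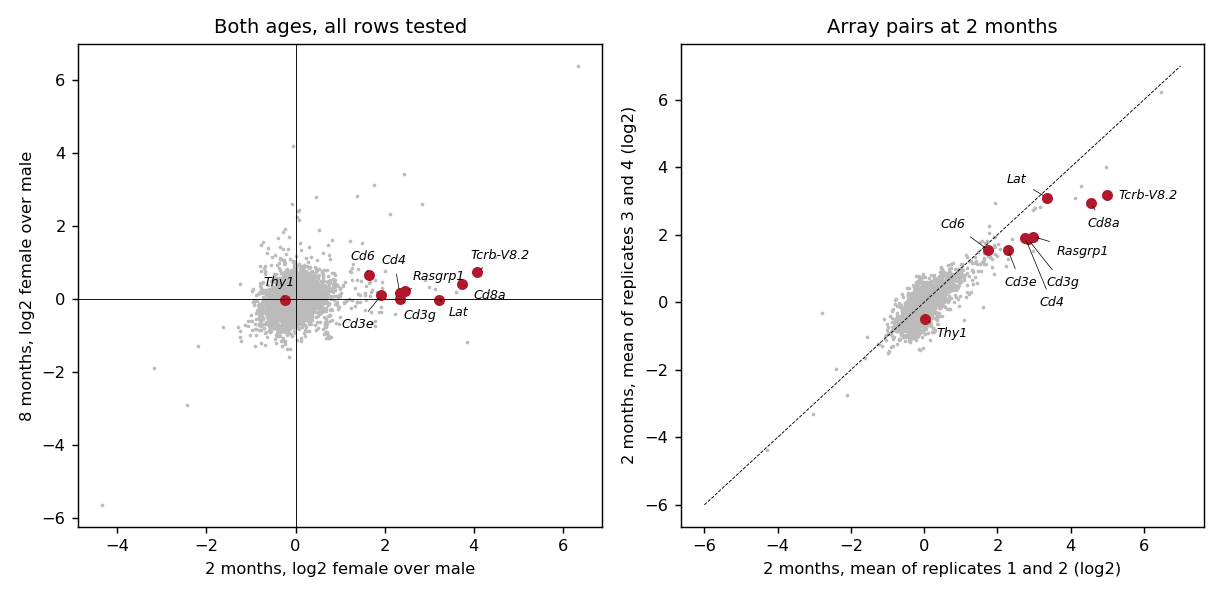
Left, the dye-balanced log2 ratio of females over males at 2 months (x axis) and 8 months (y axis) for the 7812 rows tested (grey) and the 9 genes (red). Right, at 2 months, the mean of replicates 1 and 2 (x axis) and of replicates 3 and 4 (y axis), with a dashed line of equality, under which the 8 genes with high ratios all lie, at 63.3% (Tcrb-V8.2) to 92.8% (Lat) of the x value.

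The other genes of the receptor and its signalling cascade were taken from a list of 85, of which 27 had a row and 25 passed the filter. Over both ages, 0 of the 25 passed limma's test of the sexes at an adjusted p below 0.05 (lowest limma adjusted p = 0.296). Of all 7812 rows, 7 were called (0.0896%, or 0.064% counting those higher in females). An unadjusted limma p below 0.05 was found for 3 of the 25 and for 811 of the 7812 rows. In that test a difference between the ages counts as residual, so a change at 1 age is hard to call. By size, 7 of the 25 were higher in females at 2 months and 0 were lower, against 2.41% and 1.77% of all rows. Their median was 0.017 at 2 months and -0.027 at 8 months, close to the median of all rows. At 2 months 14 were positive and 11 negative, and 46.4% of all rows were positive. Cd247, Cd8b1, Lck, Zap70, Ptprc, Cd2, Cd28, Prkcq, Plcg1, Vav1 and Rasgrp2, also on the list, were not analysed here.

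Of the 7, Sla, an adaptor that lowers receptor levels in thymocytes, was at 2.25, 2.29, 1.49 and 1.69 at 2 months, or 1.93 ± 0.40. Sit1, a transmembrane adaptor that dampens receptor signals, was at 1.41 ± 0.35, and Txk, a Tec family kinase of T cells, at 1.38 ± 0.39. Ptprcap, a protein bound to the phosphatase CD45, was at 0.94 ± 0.46. Dgka, a kinase that removes diacylglycerol and so opposes RASGRP1, was at 0.70 ± 0.12. Lcp2, the adaptor SLP-76 that works with LAT, was at 0.66 ± 0.37. Cd3d, the delta chain, was at 0.69 ± 0.17.

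Cd3d differed from its neighbours in size. It was at 0.83, 0.75, 0.74 and 0.45 at 2 months, and every array was below every array of Cd3e and Cd3g. At 8 months it was at -0.49, -0.21, -0.032 and -0.52, or -0.31 ± 0.23, below 0 on 4 of 4 arrays. Ratios of different probes need not share 1 scale, and the Cd3d probe was not compared with the others in any other way.

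At 8 months 1 gene of the 25 was higher by size, Cd44, an adhesion receptor, and 0 were lower, against 1.68% and 1.31% of all rows. Cd44 was at 0.44, 1.26, 0.13 and 0.56, or 0.60 ± 0.48, with its highest array on replicate 2, and from replicates 3 and 4 alone it was at 0.35, under the 1.5-fold limit. The 7 genes above were at -0.31 to 0.48 at 8 months. A further pair of list genes was measured at 2 months but lacked values at 8 months and were not tested. Sh2d1a, the adaptor SAP of T and NK cells, was at 3.06, 2.96, 1.90 and 3.37 at 2 months and had 0 values at 8 months. Cd5, a receptor that tunes thymocyte signalling, was at 1.25, 1.99, 1.72 and 1.80 and had 1 value at 8 months, 1.05. In the wider cascade the kinases Fyn, Syk and Tec were at -0.078, -0.14 and -0.013 at 2 months, the calcineurin subunits Ppp3ca and Ppp3cb at -0.11 and -0.090, and the factors Nfatc1 and Nfatc3 at -0.023 and 0.017. Rasa1, which switches Ras off, was at -0.0067, and Malt1, a protease of the NF-kappaB branch, was the lowest at -0.47 ± 0.17.

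**Figure D3:**
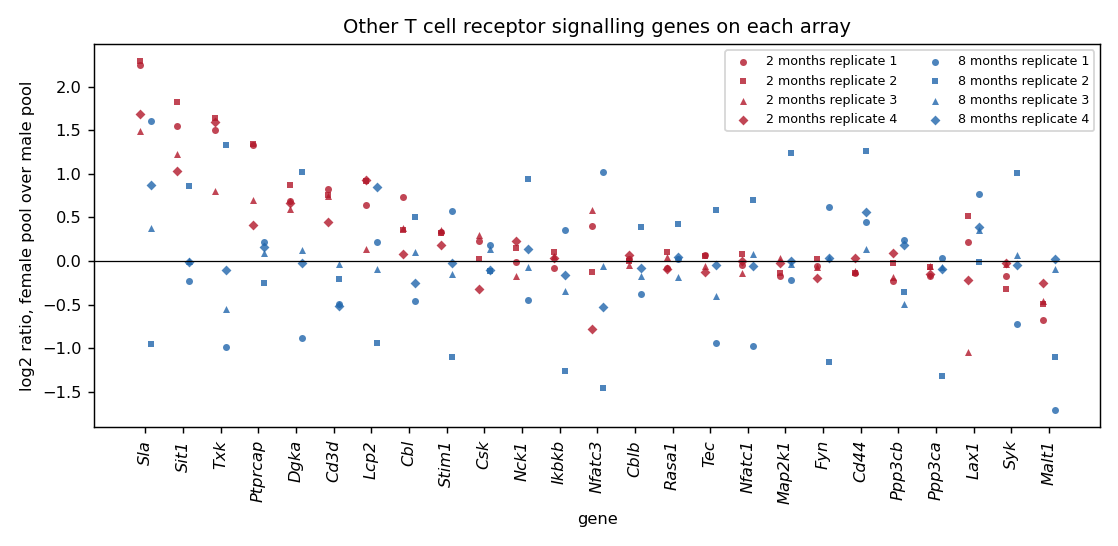
Log2 ratio of the female over the male pool (y axis) for the 25 other receptor and signalling genes that were tested (x axis, ordered by their 2-month mean), on each array, red for 2 months and blue for 8 months. At 2 months the 7 genes counted by size are those from Sla at 1.93 to Lcp2 at 0.66, while the 8-month arrays scatter widely around 0.

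Genes of thymocyte development and of the thymic stroma also had high ratios at 2 months. Of 15 thymocyte genes tested, 13 were positive and 10 were higher by size, with a median between 0.88 and 1.45 on the 4 arrays. Of all rows, 46.4% were positive and 2.41% higher by size at 2 months. By size at 8 months, 1.68% of all rows were higher and 1.31% lower. The largest were Rag1, whose product cuts antigen receptor loci for rearrangement, at 4.48 ± 0.60, the terminal transferase Dntt at 3.60 ± 0.61, the T cell factor Bcl11b at 1.79 ± 0.58 and Arpp21, a gene of thymocytes and neurons, at 1.68 ± 0.51. Of 6 genes of the thymic stroma, 5 were positive and 4 higher by size, with a median of 0.76 to 1.58 on the 4 arrays. Tbata was at 3.14 ± 0.41, the chemokine Ccl25 at 2.91 ± 0.21, the keratin Krt8 at 1.45 ± 0.49 and Foxn1, the factor that specifies thymic epithelium, at 0.91 ± 0.41. Prss16, a protease of thymic epithelium, was at 4.57 ± 0.78 at 2 months and had 0 values at 8 months. At 8 months the thymocyte median on the arrays was -0.011 to 0.48 and the stromal median -0.12 to 0.22, with Rag1 higher by size at 1.15 ± 0.90 (1.14 from replicates 3 and 4 alone). Bcl11b was lower by size at 8 months, at -1.79, -0.89, -0.21 and -0.063, or -0.74 ± 0.79, but at -0.13 from replicates 3 and 4 alone, under the 1.5-fold limit. Foxn1 was lower by size at -1.67, -0.058 and -0.75 on replicates 1 to 3 (-0.63 ± 0.81, n = 3), with no value on replicate 4. The part of these cells in the ratios of the receptor genes was not tested.

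Genes of mature T and NK cells differed less. For the counts that follow, 46.4% of all rows were positive at 2 months, 2.41% higher by size and 1.77% lower. Of 16 tested, 14 were positive at 2 months, with a median of 0.28, and 4 were higher by size: Cd27, a receptor of the tumour necrosis factor family, at 1.38 ± 0.66, the granzyme Gzma at 0.91 ± 0.15, the factor Klf2 at 0.85 ± 0.063 and the surface antigen Cd52 at 0.78 ± 0.37. B cell genes went the other way in 10 of 12, with a median of -0.25 and 1 lower by size, Cd79a, a chain of the B cell receptor, at -0.60 ± 0.34. Ly86, Cd22 and Ms4a1 followed at -0.50, -0.47 and -0.32. All 24 macrophage and antigen presentation genes were negative at 2 months, with a median of -0.44 and 3 lower by size: Ccr2 at -0.82 ± 0.40, Fcgr1 at -0.80 ± 0.77 and Cx3cr1 at -0.65 ± 0.19. C1qa, at -0.80 ± 0.97, was not counted by size. Of 13 fat genes, 5 were higher by size, among them Ucp1, the mitochondrial uncoupler of brown fat cells, at 2.99 ± 0.21, Fasn at 1.88 ± 0.23, Scd1 at 1.79 ± 0.13 and Cidec at 1.71 ± 0.23. Heart muscle genes had a median of -0.022 over 19 tested, with 0 counted by size and the largest values in Slc8a1 (-0.40), Nppa (0.30), Myh6 (-0.28) and Myl4 (0.23). Endothelial genes had a median of -0.092 over 11, also with 0, and the largest in Flt1 (-0.51), Kdr (-0.44), Cdh5 (-0.43) and Cldn5 (-0.42). Blood genes had a median of -0.22 over 13, with the lactoferrin gene Ltf higher at 2.01 ± 0.29 and the platelet chemokine gene Ppbp lower at -0.95 ± 0.11, and Pf4 and Itga2b at -0.56 and -0.54. At 8 months 45.0% of all rows were positive, 1.68% higher by size and 1.31% lower. The macrophage genes had a median of 0.19 at that age, with 14 positive and 10 negative. Fcgr1 was then higher by size at 0.92 ± 0.73 (0.86 from replicates 3 and 4 alone), and Cd74 was lower at -0.63 ± 0.65 (-0.075 from replicates 3 and 4 alone). The B cell median was -0.064, with Jchain, the joining chain of secreted antibodies, higher by size at 2.61 ± 1.01. Blood genes had a median of 0.28 at 8 months, with 12 of 13 positive and Ltf (0.77 ± 0.38) and Slc4a1 (0.71 ± 0.077) higher by size. Of the heart muscle genes, Nppb was higher by size at 1.55 ± 0.60, with a list median of -0.18. The medians of mature T and NK, fat and endothelial genes were 0.16, -0.093 and -0.24 at 8 months, with 0 counted by size. In these 9 further lists 0 genes passed limma's test over both ages (lowest limma adjusted p per list 0.253 to 0.459). An unadjusted limma p below 0.05 was found for 1 to 7 genes a list, and for 811 of all 7812 rows.

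**Figure D4:**
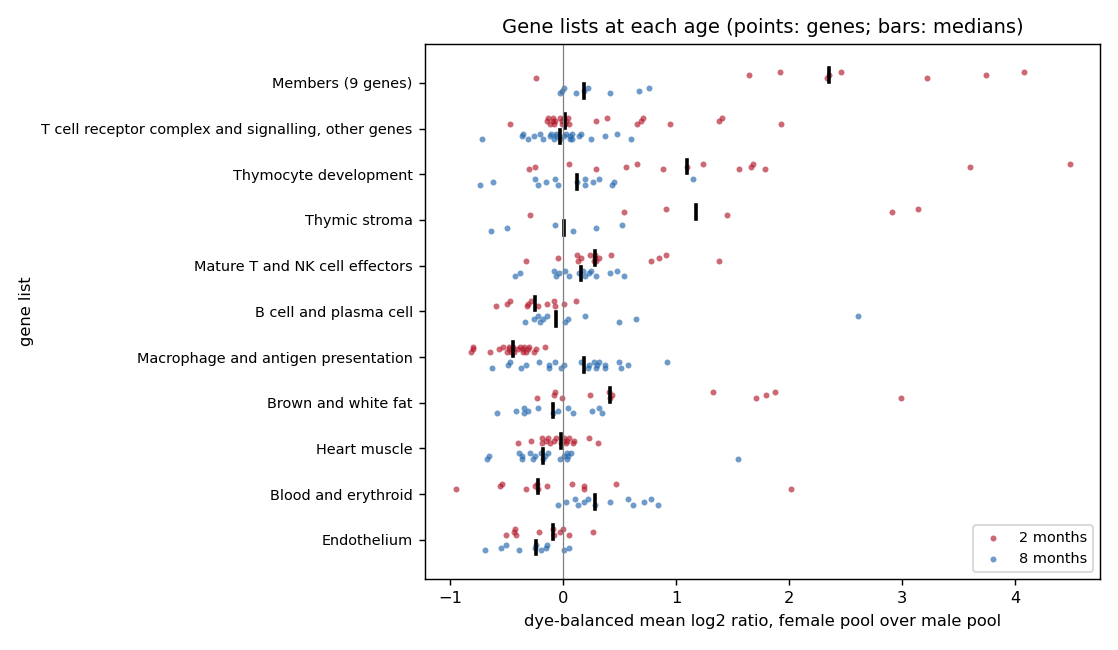
Dye-balanced mean log2 ratio of the female over the male pool (x axis) for each tested gene of the 9 genes and of 10 gene lists (y axis), red for 2 months and blue for 8 months, with a black bar at each median. At 2 months the median of the 9 genes is 2.35, those of thymocyte and thymic stroma genes are 1.10 and 1.18, and that of macrophage genes is -0.44.

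The gap between the array pairs at 2 months was also seen in other genes that were higher by size. The mean of replicates 3 and 4 was a median of 70.2% of that of replicates 1 and 2 for 10 thymocyte genes (range 48.4 to 87.4%) and 70.1% for the 7 signalling genes. For 4 stromal genes it was 81.4%, and for 5 fat genes 86.7% (range 85.4 to 89.5%). The signalling genes ranged from 41.7 to 80.4%, below every fat gene, and the stromal genes from 55.7 to 92.4%. Lat and Cd6 lay above every thymocyte gene.

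The rows closest to the mean of the 9 genes over the 8 arrays, by Euclidean distance among 5624 rows with a symbol and values on all arrays, were Ucp1 (1.47), the lipid droplet gene Cidec (1.58), Septin1 (1.61), Arpp21 (1.69), Trgv2, a variable segment of the receptor gamma chain (1.76), Ccl25 (1.76), Fasn, fatty acid synthase (1.78), and Ikzf1, the lymphocyte factor Ikaros (1.82). The median distance over these rows was 5.10. Of the 9 genes themselves, Thy1 was at 5.44, farther than that median, while Cd3g was at 0.66, Cd4 at 1.03 and Cd3e at 1.17. Cd6 (2.01), Lat (2.14), Rasgrp1 (2.48), Cd8a (3.01) and Tcrb-V8.2 (3.91) were farther than every row named above. The 8 arrays share 4 pools, and the distance is a description of these ratios only.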

How the data were processed

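Whole-heart RNA was measured on 2-colour cDNA arrays. The authors' deposited table holds log10 ratios, which follow the dyes as Cy5 over Cy3 and are limited at 2 and -2 (100-fold). Images were read with Agilent Feature Extraction 7.1.1, per the labels, with later normalization steps not given in the sources used here. No intensities were used. An exact 0 (6.38 to 13.9% of values per array) was treated as no measurement.

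All ratios were put on the log2 scale with the female pool as numerator. Gene symbols of the platform were brought up to date with RefSeq GRCm38.p6 (6600 of 6671 probes with 1 symbol matched, 400 had several and 2536 none). Probes of 1 symbol were averaged. Rows needed values on at least 3 of the 4 arrays of each age and in both orientations (7812 rows). The sexes were tested over both ages with limma 3.58.1 in R 4.3.3 on the 2 age means (1 residual degree of freedom, two-sided, Benjamini-Hochberg). Data were also simulated with each change put in equally at both ages. There limma called 80 of 100 rows changed 4-fold, 85 of 100 changed 16-fold and 2 of 7612 unchanged rows among 7812. A change at 1 age only was not simulated, so these shares do not apply to it. The number of pools, 1 per sex and age, limits the precision.

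The members and lists were chosen with earlier results of these data known. Genes were named by this rule: all members, every other signalling gene counted by size at either age plus a fixed set of core ones where measured (Cd3d, Lcp2 and Cd5 were), up to 4 of each other list with the largest absolute 2-month value, and the 8 rows nearest the members. Sh2d1a, Prss16, the other named kinases, phosphatase subunits and factors, Rasa1, Malt1, Cd74, Jchain, Slc4a1 and Nppb were named after their values were seen. Alternatives covered centring, scaling, zeros, the trend, the filter, the size limit, the variance prior and leaving out arrays.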

Additional observations from a re-analysis of the deposited data

Results flagged for a closer look

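Cd3d, the CD3 delta chain, was above 0 on all 4 arrays at 2 months and below 0 on all 4 at 8 months, a difference of 1.00 (log2) that was not tested. Single arrays stood apart from the other 3 in 4 of the 68 sets of 4 arrays examined, over 34 receptor and signalling genes, where chance alone flags about 5%. None of the 9 genes was among them. At 2 months they were Txk at 0.80 on replicate 3 and Cd44 at 0.038 on replicate 4. At 8 months they were Ppp3ca at -1.32 and Map2k1, a kinase of the Ras pathway, at 1.23, both on replicate 2, the array with the strongest trend along the features.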

How the results depend on the processing

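The 8 genes higher by size at 2 months kept that call with centring, scaling, the trend removed, 2-fold and each 2-month array left out. Zeros, the plain mean, the filter and the 8-month arrays could not change it, since all 9 genes had values on all 8 arrays. The median of the 9 genes, 2.35, was 3.90 with arrays scaled to one spread, which widens the 2-month arrays by construction, and 2.13 to 2.66 with 1 array left out. At 8 months the median of 0.19 ranged from 0.0058 to 0.29 with 1 array left out. The call of Tcrb-V8.2 at 8 months was lost on replicates 3 and 4 alone and at a 2-fold limit. Rasgrp1 was added without replicate 1, Cd8a without replicate 2 and Cd6 without replicate 4. The 7 genes without overlap of the ages were 7 to 8 with 1 array left out. Paired by replicate number as a block, 8 genes had 1 sign in all 4 differences. Neither count has a share of all rows beside it, so nothing is read from them. Same-numbered arrays of the ages share the dye orientation and no pool. Their deviations correlated at -0.17, -0.11, 0.39 and 0.42 for replicates 1 to 4, and any other link between them was not tested. Rows counted by size at 2 months (326) were 828 with scaled arrays, 87 at 2-fold and 318 to 371 with 1 array left out. At 8 months (233) they were 67 at 2-fold and 376 to 533 with 1 array left out, where 1 sign is asked of fewer arrays. The 7 rows called by limma over both ages were 3 with scaled arrays, 1 with the trend removed, 1 from replicates 3 and 4 at 8 months and 0 with zeros kept (887 with an unadjusted p below 0.05). They were 21 in a fit of single arrays with a replicate block. That fit takes repeat arrays of the same pools as replicates, so nothing is read from its count. The age means gave 4 to 105 rows with 1 array left out: 4 without replicate 4 at 2 months, and 88 and 105 without replicates 1 and 4 at 8 months. The cause was not tested. With 1 residual degree of freedom the counts from fits of the age means say little of single rows. Signal over background is unknown.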
